A study of Hermetia illucens with 24 samples.

Results

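The 100 genes described here were the most abundant genes of black soldier fly larvae whose mean level stayed within a narrow band across diet and time. They were chosen from 15129 genes named by an NCBI LOC number, leaving out LOC119646963, the most abundant gene of the table. For each gene, CPM (the read count scaled to a common library sum) was taken over all counts of a library without LOC119646963, and log2(CPM + 1) was averaged in each of 6 groups. A gene qualified when its highest and lowest group means differed by less than 0.7 on the log2 scale, a fold of 1.62, and the 100 qualifying genes with the highest mean were taken. Levels, differences between groups and the range between groups were therefore used to choose these genes, and they are given as a description. The spread between libraries of the same group did not enter the choice directly, although group means of noisy genes are less likely to stay within the band.

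The larvae of *Hermetia illucens* were 5 days old when they were given untreated chicken feed (control) or the same feed spiked with aflatoxin B1 (AFB1). They were collected after 6, 24 and 72 h, which gives control 6 h, control 24 h, control 72 h, AFB1 6 h, AFB1 24 h and AFB1 72 h, with 4 libraries in each group. Each library was made from 2 pooled larvae, with no tissue named, so tissues cannot be told apart, and fewer cells of a type and less RNA per cell cannot be told apart either. No dose, strain or rearing container is given in the labels, and whether the pools of a group came from separate containers is not stated, so the spread between libraries may be partly technical.

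AFB1 is a toxin of *Aspergillus* moulds that is turned into a DNA-damaging epoxide by cytochrome P450 enzymes. Genes that nearly every cell uses at a steady rate, often called housekeeping genes, code for parts of the ribosome, the cytoskeleton, the energy metabolism and the protein-folding machinery. Such genes are commonly used as reference genes, against which the level of other transcripts is measured in quantitative PCR, and a reference gene has to be steady in the tissue and treatment at hand. The sources used here pair the LOC numbers with no product names, so which of these functions the 100 genes have is not stated, and they are given by identifier. All 100 are protein-coding in the reference annotation.

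Counts outside LOC119646963 ran from 1711314 to 24355059 per library, and LOC119646963 itself took between 7.12% and 81.1% of a library's counts. Its share was 74.2% and 81.1% in AFB1 24 h replicates 3 and 4, and 27.4% and 42.8% in replicates 1 and 2. It was 36.8% in control 24 h replicate 4 against at most 7.92% in the other 3 controls of that time. In AFB1 6 h replicate 3 it was 33.7%. The 4 control 72 h libraries were much alike. Between 11.6% and 31.6% of genes differed between 2 of them (chi-square test of the counts at an unadjusted p under 0.05). In other groups that share was 43.7% to 82.7%. Replicates 1 and 4 were the closest, with 19 of the 100 genes differing, while any other group's replicates differed in 76 to 95. Whether these 4 libraries come from separate pools of larvae or from repeats of the same RNA cannot be told from the counts, so their SDs may be technical.

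The 100 genes spanned a wide range of levels. The median of their mean log2(CPM + 1) was 7.70, about 207 CPM, the lowest was 6.79 and the highest 12.84. Of the 100, 15 had a mean level over 10, 28 a level between 8 and 10 and 57 a level under 8. Among them were 2 of the 10 most abundant LOC genes, 4 of the first 20 and 15 of the first 100, and the last of the 100 stood at rank 1062. All 1062 genes at least that abundant had a median range of 1.54 between their highest and lowest group mean. The other 962 of them are the genes that failed the range rule. Their median range of 1.65, a fold of 3.15, thus lies above the 0.58 of the 100 by the choice itself.

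**Figure D1:**
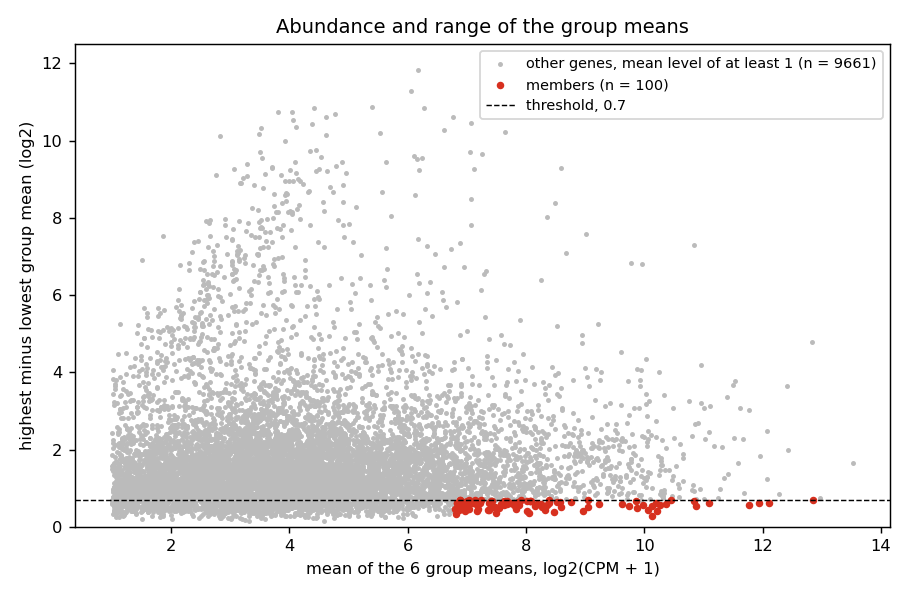
Each point is a gene, with the mean of its 6 group means in log2(CPM + 1) on the x axis and the difference between its highest and lowest group mean in log2 on the y axis. The 100 chosen genes, in red, lie below the dashed threshold of 0.7 and to the right of a level of 6.79, while most genes of the same level lie above the threshold.

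The share of genes with a range under the threshold was 12.3% of 1616 genes at levels of 2 to 3, 13.2% of 1252 genes at 5 to 6, 8.64% of 428 genes at 7 to 8, 5.26% of 152 genes at 9 to 10 and 14.7% of 34 genes over 11. Just outside the choice, LOC119656489, the gene of rank 2 in abundance, had a range of 0.75, LOC119660112 at rank 27 had 0.76 and LOC119651624 at rank 33 had 0.73. The next qualifying genes by abundance were LOC119648996 and LOC119658978, with mean levels of 6.78 and 6.78 on the log2 scale, against 6.82 and 6.79 for LOC119656668 and LOC119656615, the last of the 100. The widest ranges inside the choice were 0.69 in LOC119652790, 0.70 in LOC119648858 and 0.70 in LOC119648061.

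LOC119653876 was the most abundant of the 100 and took 0.763% of the counts outside LOC119646963, averaged over the libraries. Without AFB1 it had 7519, 7411, 5576 and 5840.4 CPM at 6 h, 5606, 5453, 5121 and 12857 CPM at 24 h and 7098, 7312, 6802 and 7125 CPM at 72 h, replicates 1 to 4 in order. On AFB1 feed it had 6938, 5512, 8678 and 6953 CPM at 6 h, 9985, 12272, 9809 and 10233 CPM at 24 h and 9697, 4818, 6660.4 and 7732 CPM at 72 h. The 4 AFB1 24 h libraries were above every other library except control 24 h replicate 4, which was the highest of all, and its range of 0.69 became 0.97 without that replicate.

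LOC119658388, the second of the 100, had 4484, 3818, 4051 and 4267 CPM on control feed at 6 h and 3996, 3979, 3515 and 6524 CPM by 24 h. On AFB1 feed it had 6131, 3905, 8882 and 4041 CPM at 6 h and 5684, 5945, 6275 and 2797 CPM at 24 h. Control and AFB1 libraries overlapped at both times, and AFB1 6 h replicate 3 was the highest library of the gene. At 72 h it had 4096, 4635, 4845 and 4052 CPM on control feed and 4879, 3042, 2850 and 3701 CPM with AFB1. AFB1 72 h was its lowest group, with replicates 2 to 4 below every control of that time and replicate 1 above them. The next by abundance, LOC119651191 and LOC119647699, had ranges of 0.62 and 0.56. LOC119647699 was the more even within groups, with a pooled within-group SD of 0.25 on the log2 scale against 0.33, and 2177 to 5919 CPM over the 24 libraries. Ranks 5 to 10 among the 100 were held by LOC119660519, LOC119655282, LOC119652081, LOC119658647, LOC119655749 and LOC119650148, with mean levels from 11.09 down to 10.26 and ranges from 0.54 to 0.69.

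Together the 100 genes took 5.65% ± 0.460 (SD, n = 4) of the counts outside LOC119646963 on control feed after 6 h, 6.03% ± 0.580 after 24 h and 5.30% ± 0.0172 after 72 h, where the SD may be technical. With AFB1 the share came to 6.18% ± 0.302 after 6 h, then 6.14% ± 1.01 after 24 h and finally 5.67% ± 0.442 after 72 h (SD, n = 4 each). Group means thus differed by less than the spread of AFB1 24 h libraries. The 24 libraries ran from 5.15% to 7.07%, and both ends of this span were AFB1 24 h libraries. The 4 most abundant of the 100 alone took between 1.51% and 2.61% of a library. The other 962 genes of the same abundance together took 54.6% to 68.2%.

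Within AFB1 24 h the share was 6.93% and 7.07% in replicates 1 and 2, and 5.15% and 5.39% in replicates 3 and 4, the libraries in which LOC119646963 took most. The share of the mitochondrial protein genes was 6.74% and 9.94% in the first pair and 15.6% and 14.7% in the second, and its part in the result was not tested. Counted against all reads of a library, LOC119646963 included, the 100 genes took 4.57% to 5.08% on average in 5 groups and 2.86% ± 1.99 (SD, n = 4) in AFB1 24 h, where replicate 4 gave 1.02%. The steadiness of the 100 is thus a steadiness among the counts outside LOC119646963.

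**Figure D2:**
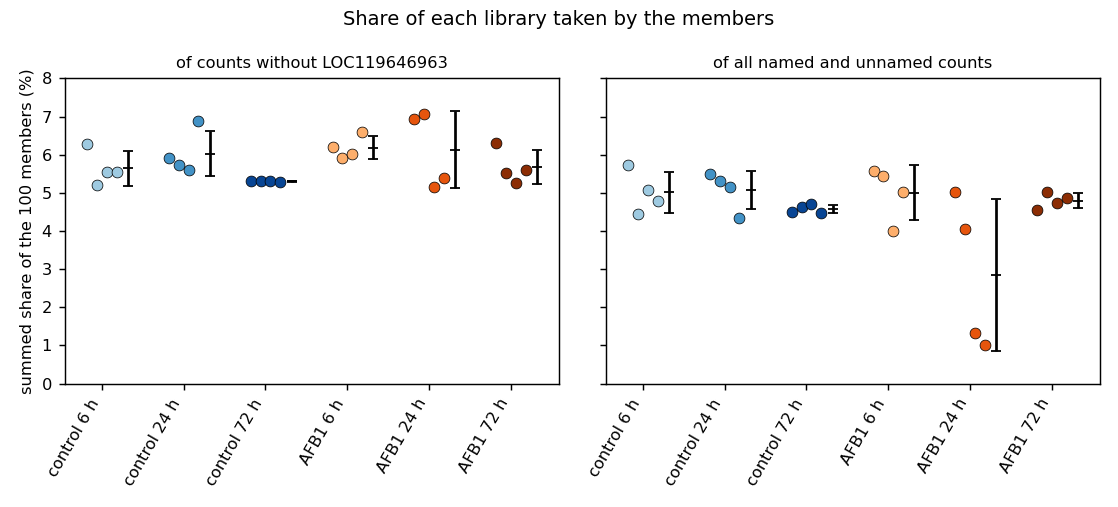
The y axis gives the summed share of the 100 genes in percent and each point is a library, with the mean and SD of the 4 libraries of a group beside them. Without LOC119646963 in the sum (left) all libraries lie between 5.15% and 7.07%, and with it (right) AFB1 24 h replicates 3 and 4 lie at 1.33% and 1.02%.

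Within the 100 genes, whose range was held under 0.7, range and spread between single libraries of a group were only weakly related. The pooled within-group SD of log2(CPM + 1) had a median of 0.38 over the 100 genes with a lowest value of 0.16 and a highest of 0.81. The median over the other 962 genes of the same abundance, whose ranges were wider, was 0.63. With 4 libraries per group, an SD of 0.38 gives a standard error of 0.19 for a group mean. For 9 of the 100 genes the within-group SD was larger than the whole range between group means. Across the 100 genes, which share their libraries, range and within-group SD had a Spearman correlation of 0.29, and abundance and within-group SD one of -0.06.

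**Figure D3:**
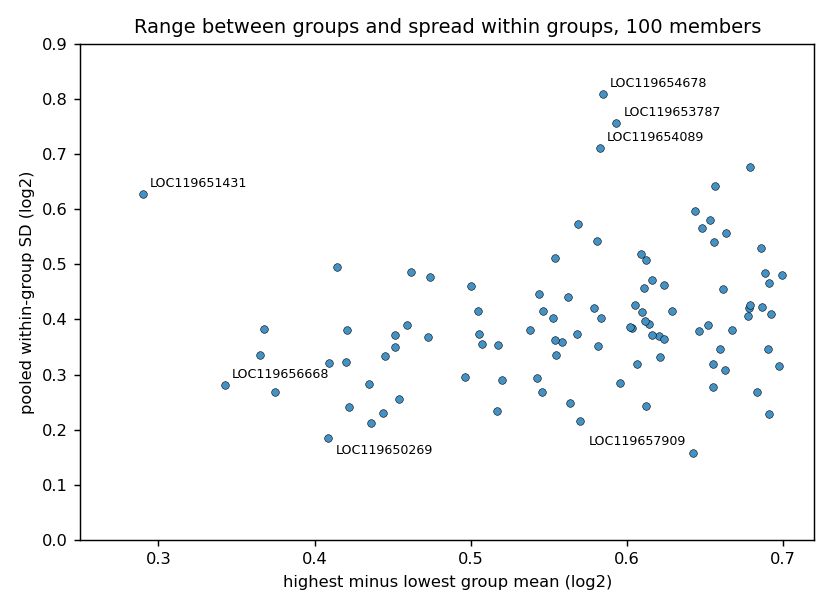
Each point is 1 of the 100 genes, with its range between group means (log2) on the x axis and its pooled within-group SD (log2) on the y axis. LOC119651431 has the smallest range, 0.29, with an SD of 0.63, while LOC119657909 has the smallest SD, 0.16, with a range of 0.64.

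Counting error took a small part of that spread. In control 72 h libraries the median SD of the 100 genes was 0.07 and the SD from counting alone was 0.03, and the observed SD was above the counting SD in 88 genes. The median observed SD was 0.24 in control 6 h and 0.32 in control 24 h. It was 0.40 in AFB1 6 h, 0.50 in AFB1 24 h and 0.35 in AFB1 72 h. The median SD from counting was at most 0.06 in any group, and its largest value for a gene was 0.11, in AFB1 24 h. All 100 genes had counts in every library, and the lowest was 60 counts, in AFB1 24 h replicate 4. Control 72 h, with the lowest SD, is the group whose 4 libraries may not be separate samples, and without it the median pooled SD was 0.42 in place of 0.38.

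The evenest genes over all libraries were not the most abundant. In 6 of the 100 genes the highest of the 24 libraries was less than 2 times the lowest, namely LOC119650632, LOC119657909, LOC119646997, LOC119655254, LOC119650269 and LOC119659609. In 49 it was less than 3 times, in 9 more than 5 times and in none more than 10 times, with a median of 3.05. These 6 genes were singled out after their values were seen.

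LOC119650269 had the lowest ratio, 1.72 between highest and lowest library, at a median of 120.02 CPM. Its values in controls were 160.4, 139, 154 and 134 CPM at 6 h, 118, 104, 119 and 143 CPM at 24 h and 115, 111, 106 and 112 CPM at 72 h. On AFB1 feed they were 121, 145, 97.8 and 143 CPM at 6 h, 119, 132, 93.3 and 99.8 CPM at 24 h and 145, 144, 134 and 111 CPM at 72 h. Control 6 h libraries were all above control 72 h libraries, while control and AFB1 libraries overlapped at all 3 times. At 72 h this overlap came only from AFB1 replicate 4.

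LOC119650632, at 1090 CPM in the median, was the evenest of the genes above 1000 CPM, with a ratio of 1.90 between its highest and lowest library. Its controls had 1209.7, 1079, 1089 and 1353 CPM at 6 h, 1116, 990.1, 1147 and 1313 CPM at 24 h and 914, 810.0, 805 and 942 CPM at 72 h. On AFB1 feed it had 792, 1200.4, 786 and 1494 CPM at 6 h, 1018, 1306, 1157 and 1226 CPM at 24 h and 1091, 1070.4, 1136 and 919.9 CPM at 72 h. The 2 diets overlapped at all 3 times, and control 72 h was the lowest group mean. At 72 h they overlapped only between AFB1 replicate 4 and control replicate 4. LOC119653215, its direct neighbour in gene order, was also among the 100, with 377 to 772 CPM and a within-group SD of 0.23.

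LOC119657909 had the smallest within-group SD, 0.16, but used most of the permitted range, 0.64. Its controls had 451, 308, 347 and 321 CPM after 6 h, 535, 556, 519 and 555 CPM after 24 h and 372, 333, 332 and 349 CPM after 72 h. On AFB1 feed it had 404, 483, 429 and 549 CPM at 6 h, 609, 517, 503 and 476 CPM at 24 h and 369, 393, 446 and 450.4 CPM at 72 h. The control 24 h libraries were above all control libraries of 6 and 72 h without overlap, so a gene that passed the range rule still differed between times by more than its own spread. LOC119655254 had the third smallest SD, 0.21, with 118 to 230 CPM over the 24 libraries.

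Other genes had steady means over unsteady libraries. LOC119651431 had the smallest range of all, 0.29, and a within-group SD of 0.63. Its controls had 684, 1518, 1004 and 1355 CPM at 6 h, 1095, 659, 913 and 1768 CPM at 24 h and 1279, 854, 909.8 and 1315 CPM at 72 h. On AFB1 feed it had 878, 825, 1103 and 1601 CPM at 6 h, 1693, 2548, 873 and 692 CPM at 24 h and 2624, 668, 932 and 1184 CPM at 72 h. Low and high libraries occurred in every group, and leaving out AFB1 24 h replicate 4 raised the range to 0.58.

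LOC119653787 had the widest spread over libraries, from 152 to 1489 CPM, a ratio of 9.77. Its AFB1 72 h libraries had 1002, 1489, 152 and 1317 CPM, against 489, 511, 519 and 446 CPM in controls of that time. Replicate 3 was far below the other 3, and without it the range went from 0.59 to 1.35. LOC119654678 and LOC119654089, which are direct neighbours in gene order, had SDs of 0.81 and 0.71. Both were highest in AFB1 72 h replicate 2, at 629.8 and 618 CPM, and their levels correlated with a Pearson's r of 0.91 across the 24 libraries. Whether the counting divided reads between these neighbours cannot be judged from the counts, so their separate values are uncertain.

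In each library, the level of each gene was set against the gene's own mean over the 6 groups. Between 84 and 91 of the 100 genes lay within 0.35 of their mean on the log2 scale in control 72 h libraries. The number was 62 to 77 after 6 h on control feed, and 69 to 76 in control 24 h replicates 1 to 3 against 42 in replicate 4. On AFB1 feed the number was 40 to 76 at 6 h, with 40 in replicate 3, and 52 to 68 at 72 h. In AFB1 24 h it was 52 and 51 in replicates 1 and 2, and 41 and 35 in replicates 3 and 4. Replicate 4 also had the most genes more than 1 log2 unit away, 14 of 100.

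**Figure D4:**
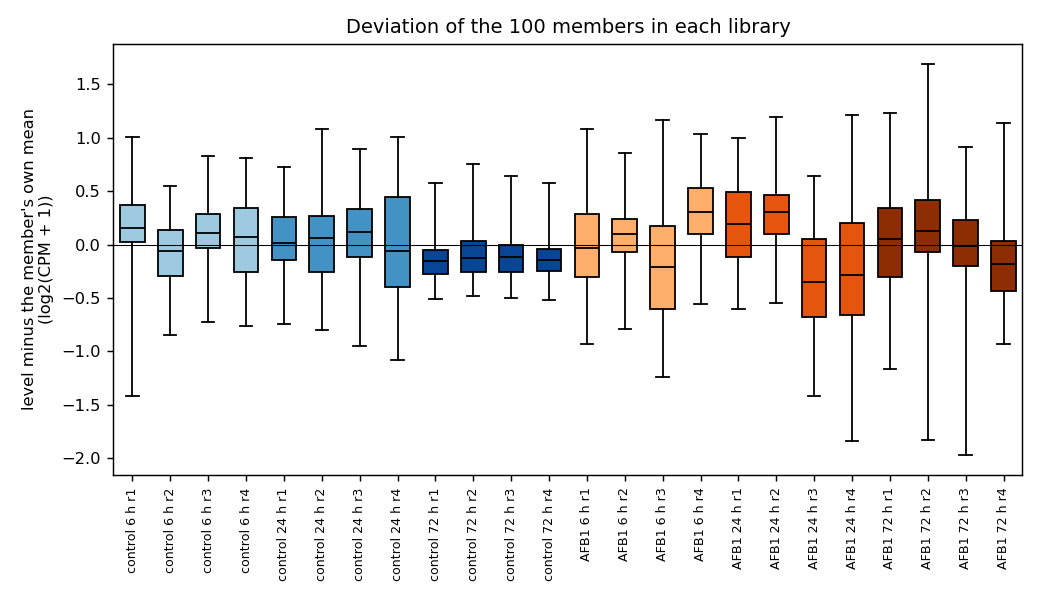
For each of the 24 libraries, the box gives the median and quartiles, and the whiskers the extremes, of the level of the 100 genes minus each gene's own mean, in log2(CPM + 1). Boxes of control 72 h are narrow and a little below 0, and the AFB1 24 h boxes lie above 0 in replicates 1 and 2 (medians 0.19 and 0.30) and below 0 in replicates 3 and 4 (-0.35 and -0.29).

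The mean of AFB1 24 h was therefore an average over libraries that lay on opposite sides. In 54 of the 100 genes both of replicates 1 and 2 were above both of replicates 3 and 4, and in 6 genes both were below. The median difference between the pairs was 0.50 on the log2 scale, a fold of 1.41. Among the other 962 genes of the same abundance, 52.3% were above and 20.3% below in the same sense, and the median size of the difference was 0.93, against 0.61 in the 100. Without AFB1 24 h replicates 3 and 4 and control 24 h replicate 4, 55 of the 100 genes still had a range under 0.7.

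Within the permitted band, the order of the groups was uneven. The highest group mean was that of control 6 h in 27 genes, AFB1 6 h in 22, control 24 h in 20, AFB1 24 h in 14, AFB1 72 h in 14 and control 72 h in 3. The lowest was that of control 72 h in 32 genes, AFB1 24 h in 26, control 6 h, control 24 h and AFB1 72 h in 11 each, and AFB1 6 h in 9. Among the other 962 genes of the same abundance, the highest group was AFB1 24 h in 30.2% and AFB1 72 h in 16.5%. Control 24 h was highest in 15.3%, AFB1 6 h in 14.0%, control 6 h in 13.0% and control 72 h in 10.9%. The lowest group was AFB1 24 h in 35.9%, control 72 h in 24.4% and AFB1 72 h in 14.3%. For control 6 h, control 24 h and AFB1 6 h that share was 12.6%, 8.52% and 4.26%. Highest and lowest group were of the same diet in 38 of the 100 genes. That share was not taken for the other 962 genes, so nothing is read from it.

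The difference between the diets depended on the scale. On the scale used for the choice, the median difference of AFB1 minus control over the 100 genes was -0.03 at 6 h, -0.08 at 24 h and 0.14 at 72 h, and the AFB1 mean was above the control mean in 47, 44 and 67 genes. The median over 10152 LOC genes with enough counts to be tested was -0.28, -0.44 and 0.07 on that scale, so relative to it the 100 genes stood 0.25, 0.36 and 0.07 higher. With libraries scaled by TMM, which takes the bulk of genes as unchanged, the median of all these genes was -0.04, -0.16 and 0.00, and that of the 100 genes was 0.26, 0.26 and 0.07. Size factors of DESeq2 gave 0.23, 0.27 and 0.06 for the 100. The choice on the plain scale enters the TMM and DESeq2 values in the same way. With LOC119646963 in the library sum, the 100 genes had -0.16 at 6 h, -1.22 at 24 h and 0.12 at 72 h. At 24 h all 100 AFB1 means were then below the control means. The median of all tested LOC genes was -1.21 there, and 9.97% of them had the higher mean on AFB1 feed.

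**Figure D5:**
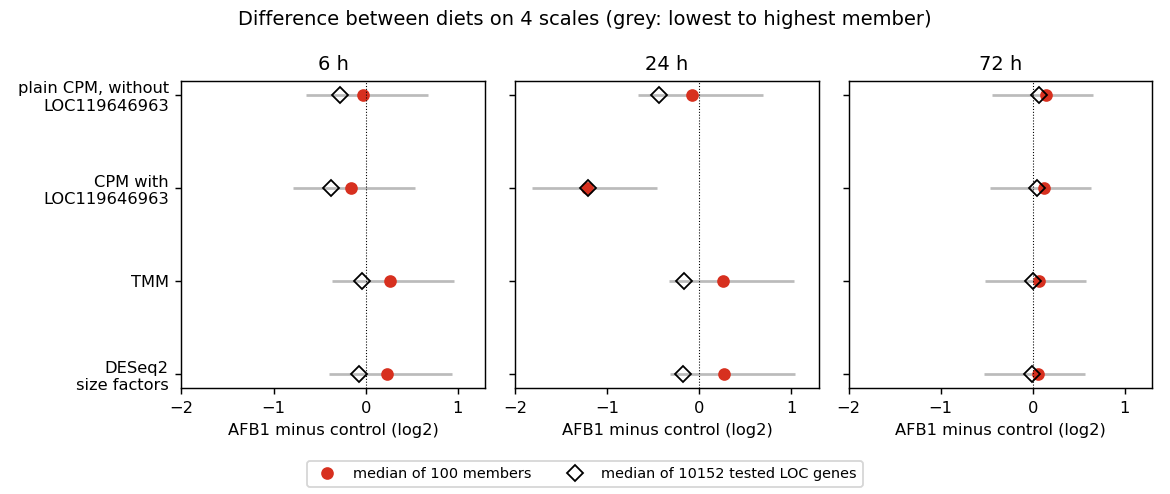
The x axis gives AFB1 minus control in log2(CPM + 1) at 6, 24 and 72 h, and each row is a way to scale the libraries. Red points are medians of the 100 genes, diamonds are medians of all tested LOC genes and grey lines run from the lowest to the highest of the 100. At 24 h the red point moves from -1.22 to 0.27 with the scale.

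The gene tests were made on the TMM scale with edgeR's quasi-likelihood test over all 10165 genes with enough counts, which included all 100. At 6 h, 1 of the 100 genes passed at an adjusted p under 0.05 and was higher on AFB1 feed, where 14.3% of all genes passed and 6.52% were higher. At 24 h, 8 passed, all higher on AFB1 feed, where 31.3% of all genes passed in either direction and 12.2% were higher. At 72 h, 0 passed, where 9.28% of all genes did. Any difference among the 6 groups was called in 6 of the 100, where 50.6% of all genes were. An AFB1 effect that differed between times was called in 0 of the 100 by edgeR, where 5.47% of all genes were. DESeq2 called 9 of the 100 at 6 h (20.6% of all genes), 15 at 24 h (37.9%), 1 at 72 h (12.2%) and 23 among the groups (62.7%). At an unadjusted p under 0.05, the 72 h count was 0 in edgeR, where 19.4% of all genes were under it. It was 5 in DESeq2 and 1 in limma voom, for which that share of all genes was not taken. Limma voom called 3 at 6 h (12.2%), 9 at 24 h (24.1%), 0 at 72 h (9.32%) and 6 among the groups (46.2%). These contrasts were used to choose the genes, so nothing is read from the low counts or from the direction of the calls.

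The number called moved with single libraries, and so did the share of all genes called. At 24 h it was 17 once control 24 h replicate 4 was left out, where 44.3% of all genes passed. It was 4 when AFB1 24 h replicate 4 was left out (22.2% of all genes), and 5 when any of control 24 h replicates 1 to 3 or AFB1 24 h replicate 3 was (15.2% to 19.7% of all genes). At 6 h it was 0 without control 6 h replicate 2, 3 or 4, AFB1 6 h replicate 1 or 3, any 1 of the control 72 h libraries or AFB1 72 h replicate 3, where 6.25% to 13.2% of all genes passed. It was 6 without AFB1 6 h replicate 2 (21.6% of all genes) or control 24 h replicate 4 (18.3%). It was 4 without AFB1 6 h replicate 4 (13.8%) or AFB1 24 h replicate 4 (16.1%), and 3 without AFB1 24 h replicate 1 (14.7%). For the 6 groups it was 3 without control 6 h replicate 2, control 72 h replicate 1, 2 or 4, AFB1 24 h replicate 2 or AFB1 72 h replicate 4, where 44.7% to 49.9% of all genes passed. Leaving out control 24 h replicate 4 gave 13 (59.7% of all genes), and leaving out AFB1 72 h replicate 2 gave 10 (52.9%). Without AFB1 24 h replicates 3 and 4 and control 24 h replicate 4 together, 15, 20 and 0 genes were called at 6, 24 and 72 h, all higher on AFB1 feed, where 24.1%, 30.7% and 11.8% of all genes passed.

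On the TMM scale the median standard error of a log2 fold change was 0.30 in the 100 genes at each time, against 0.43 to 0.45 over all genes. The 95% interval lay within a 2-fold change in either direction for 52 of the 100 genes after 6 h, for 54 after 24 h and for 76 after 72 h, where it did for 19.5%, 15.2% and 28.9% of all genes. The choice of the genes held their fold changes near 0, so nothing is read from these counts either. The biological coefficient of variation of a gene, the part of its variation beyond counting, had a median of 0.33 in the 100 and of 0.41 in all genes tested. Neither this value nor the standard error was taken for genes of the same abundance, so nothing is read from these differences.

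LOC119648858 had the largest called rise at 24 h, with a log2 fold change of 1.13 (SE 0.28) on the TMM scale. Its controls of that time had 99.7, 102, 120.3 and 80.4 CPM and its AFB1 libraries 108, 151, 152 and 273 CPM. The diets overlapped only between AFB1 replicate 1 and control replicate 3. The 273 CPM came from replicate 4, where LOC119646963 took 81.1% of the counts. On the scale used for the choice, the rule itself holds every rise under 0.7, and the largest of the 100 at 24 h was 0.69. With only the 8 libraries of 24 h, 0 of the 100 were called, where 9.52% of all genes were. LOC119655749, the ninth of the 100 by abundance, was the gene called at 6 h, with a log2 fold change of 0.93 (SE 0.30). At that time it had 1338, 825, 1173 and 1052 CPM on control feed and 1837, 1703, 1622 and 1388 CPM with AFB1, without overlap. At 72 h the same gene had a log2 fold change of -0.33 (SE 0.29).

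How far the choice of these 100 genes rests on scaling and on single libraries was examined by applying the rule again. With TMM scaling 62 of the 100 kept a range under 0.7 and with DESeq2 size factors 60, and these 60 passed on all 3 of these scales. With LOC119646963 in the library sum only LOC119653876 passed, at 0.62, and the median range of the 100 was 1.46. Leaving out single libraries in turn, 36 of the 100 kept a range under 0.7 in every case. The largest losses came without AFB1 24 h replicate 1, where 71 kept it, and replicate 2, where 81 did.

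The genes that passed both checks, the 3 scales and every library left out, numbered 25. With LOC119646963 in the library sum, none of these 25 kept a range under 0.7. This smaller list was formed after the values were seen and includes 4 of the 6 evenest genes, LOC119650632, LOC119655254, LOC119650269 and LOC119659609, but none of the 10 most abundant. Its most abundant gene was LOC119650632, followed by LOC119656531 at a median of 943 CPM, LOC119653215 at 528 CPM and LOC119648493 at 476 CPM. LOC119659005, at a median of 255 CPM, had the smallest range of these 25 on the TMM scale, 0.16, against 0.42 on the plain scale. At 24 h it had 258, 240.5, 282 and 368 CPM on control feed and 274, 252, 244 and 150.0 CPM with AFB1, which overlapped. LOC119654423, at 225 to 494 CPM over the 24 libraries, had ranges of 0.37 on the plain scale and 0.50 with TMM, and 0.43 as the highest value with a library left out.

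The 100 genes did not move as 1 block. After removing group means, the first principal component held 30.8% of their variance over the 24 libraries, and the 4950 pairs of genes had a median correlation of 0.19, with quartiles of -0.12 and 0.47. In 403 pairs (8.14%) the correlation was over 0.7 and in 56 pairs (1.13%) it was under -0.7. The closest pair was LOC119652081 and LOC119650148, with a correlation of 0.97 within groups and 0.92 over all libraries. LOC119658647 and LOC119655404 followed with 0.95 within groups, then LOC119651039 and LOC119653061 with 0.95, and LOC119652081 and LOC119650132 with 0.94. These values describe genes measured in the same libraries, whose depth and composition they share.

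In AFB1 24 h the closest pair showed its common course plainly. LOC119652081 had 3285, 2189, 945 and 751 CPM and LOC119650148 had 2212, 1657, 828 and 634 CPM. Both genes were high in replicate 1 and low in replicates 3 and 4, and both were highest among controls in control 24 h replicate 4, at 2894 and 2036 CPM. Their ranges of 0.66 and 0.55 lay under the threshold although single libraries differed 4.38-fold and 3.49-fold.

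The genes beside the 100 were also examined. They were 199 in gene order, of which 120 had a mean level of at least 3, and 13 of these (10.8%) had a range under 0.7. Genes of the 100 that lie directly beside each other are included in these numbers. They have a range under 0.7 by the choice itself, so nothing is read from this share. The share was 11.7% over all 6971 LOC genes of that level, and the median range was 1.38 in the flanking genes and 1.44 in all. Only LOC119653215 with LOC119650632, and LOC119654678 with LOC119654089, were direct neighbours within the 100.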

How the data were processed

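The authors deposited raw read counts per gene, 1 column per library, for 24 libraries of pooled larvae. Per the submitters' processing notes the tool STAR was used, and DESeq2 per the series' design text. The sources used here name no counting tool, build, strand setting or version. Of 15197 lines, 1 was empty and 9 rows named no gene. These 9 held 0.0206% to 0.0431% of a library's counts and were left out of the tests. The rule's library sums include them, and the same 100 genes result without them. The labels mention 5 replicates per group, and 4 per group were analysed. All LOC numbers matched the table of assembly GCF_905115235.1, used for gene class and gene order only.

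The genes, gene lists and tests were chosen with earlier results of these data known. The planned lists by function needed product names and were not formed. The genes named are the 10 most abundant, those of smallest and largest range and within-group SD, the largest called change per time, and those at the edges of the choice. Others are said to be chosen after their values were seen.

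Counts were tested with edgeR 4.0.16 in R 4.3.3 (filterByExpr, TMM, robust quasi-likelihood test, 1 coefficient per group, 18 residual degrees of freedom, Benjamini-Hochberg adjustment over 10165 genes). A standard error is the log2 fold change divided by the square root of F. Alternatives used DESeq2 1.42.0 and limma 3.58.1 (voom). The scripts were tested on simulated data. CPM values carry a pseudocount of 1 before log2 and are not divided by gene length, so levels of different genes compare read numbers only. Same-numbered replicates of the diets are not said to be paired.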

Additional observations from a re-analysis of the deposited data

Results flagged for a closer look

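In 144 groups of 4 values (the summed share and 23 named genes in 6 groups), 7 held a library that stood far from the other 3, which is 4.86%. Chance flags about 1 in 20 independent groups, but these genes were partly chosen for their spread and share libraries, so that rate is no yardstick here. In control 24 h replicate 4, LOC119653876 had 12857 CPM against 5121 to 5606 in the other 3, and LOC119658388 had 6524 CPM against 3515 to 3996. In AFB1 24 h replicate 4, LOC119658388 had 2797 CPM against 5684 to 6275. LOC119646963 took 36.8% and 81.1% of the counts in these 2 libraries, and its part in the result was not tested. LOC119654678 had 432 CPM in control 24 h replicate 2 against 133 to 171, and its neighbour LOC119654089 had 618 CPM in AFB1 72 h replicate 2 against 135 to 184. LOC119653787 had 1349 CPM in AFB1 6 h replicate 3 against 496 to 624, and LOC119648061 had 218 CPM in AFB1 6 h replicate 4 against 91.8 to 109. For none of the 100 genes did the effect of AFB1 differ between times in edgeR at an adjusted p under 0.05, where 5.47% of all genes did.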

How the results depend on the processing

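The number of the 100 genes called at 6, 24 and 72 h and among the 6 groups was 1, 8, 0 and 6, and the share of all genes was 14.3%, 31.3%, 9.28% and 50.6%. It was 9, 15, 1 and 23 with DESeq2 (20.6%, 37.9%, 12.2% and 62.7% of all genes), and 3 at 6 h with limma voom (12.2%). With no low-count filter it was 0 at 6 h (14 at an unadjusted p under 0.05) and 2 among the groups (9.33% and 36.7% of all genes). With the control 72 h libraries summed to 1 it was 0 (10 unadjusted), 4, 0 and 1 (7.78%, 20.2%, 2.44% and 28.7% of all genes). Without AFB1 24 h replicates 3 and 4 and control 24 h replicate 4 it was 15, 20, 0 and 20 (24.1%, 30.7%, 11.8% and 52.8%). With only the 8 libraries of a time it was 0 at 6 h (15 unadjusted) and 0 at 24 h (3 unadjusted), with 5.28% and 9.52% of all genes. Leaving out single libraries gave 0 to 6 at 6 h, 4 to 17 at 24 h, 0 at 72 h and 3 to 13 among the groups, and the shares of all genes moved too. All these shares are of genes passing at an adjusted p. The share of all genes at an unadjusted p was not taken for these fits, so nothing is read from the unadjusted counts. The replicate block, whose numbers pair no libraries by the labels (same-numbered libraries of the diets correlated with -0.22 to 0.22, and 1 of 12 correlated best with its own number), gave 0 at 6 h (12 unadjusted), 6 at 24 h, 0 at 72 h and 2 among the groups (10.5%, 27.3%, 8.63% and 43.8% of all genes).

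Of the 100 genes, 1 was chosen again with LOC119646963 in the library sum, 62 with TMM and 60 with DESeq2 size factors. Without AFB1 24 h replicates 3 and 4 and control 24 h replicate 4, 44 were chosen again. Leaving out single libraries gave 71 to 97. At a threshold of 0.5, 23 of the 100 were chosen again, the number with a range under it. At 1.0 all 100 stayed under the threshold, but more abundant genes then qualified too, and 35 were chosen again. With LOC119646963 counted, the summed shares were 5.01%, 5.08% and 4.57% in controls of 6, 24 and 72 h and 5.01%, 2.86% and 4.80% on AFB1 feed. The cause of these shifts was not tested, beyond the change of denominator itself. The median within-group SD stayed between 0.36 and 0.39 when single libraries were left out. Depth limits AFB1 24 h most, where counts outside LOC119646963 fell to 1711314.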
